A study of Mus musculus with 13 samples.

Results

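Trp53inp2 and its paralogue Trp53inp1 were followed in mouse quadriceps muscle through every probe set that the array annotation assigns to either symbol. This gave 3 of the 45141 probe sets, 1 for Trp53inp2 (1452646_PM_at) and 2 for Trp53inp1 (1416926_PM_at and 1416927_PM_at), or 2 of 17097 genes with a symbol of their own. None of the 3 carries the symbol of another gene. All 3 passed the filter on low values, a mean log2 signal over all arrays of at least 4.904, which 22519 probe sets passed. The probe set of Trp53inp1 with the higher mean over all arrays, 1416926_PM_at, is called the brighter one here and 1416927_PM_at the dimmer one.

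The study compared gain of function and ablation of DOR, an earlier name of Trp53inp2, on Affymetrix perfect-match strip arrays with 1 array per mouse. Its 13 mice were C57Bl/6 males aged 4 months, kept on standard chow, and fell into the groups C (n = 3), SKM-KO (n = 3), Wt (n = 3) and SKM-Tg (n = 4). The labels give no allele, promoter or Cre line for any group and do not say whether the control groups carry a floxed allele or a silent transgene. From the names and the design, SKM-KO was read as ablation in skeletal muscle with C as its control, and SKM-Tg as gain of function with Wt as its control; all comparisons rest on that reading. Arrays are numbered 1 to 4 within a group in order of deposit, and equal numbers do not pair mice.

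Trp53inp2 encodes a protein that leaves the nucleus when autophagy starts, binds LC3 and GABARAP proteins and takes part in autophagosome formation; it is also a coactivator of nuclear receptors such as the thyroid hormone receptor. It is abundant in skeletal muscle. Trp53inp1 is a stress-induced target of p53 whose product acts in the nucleus with the kinases that phosphorylate p53 and, in the cytoplasm, binds the same family of LC3 proteins. Both proteins belong to 1 small family and share the motif through which they bind LC3.

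The promoter of Trp53inp2, the gene that sets the SKM-KO arrays apart, is given as RefSeq holds it for GRCm38.p6, plus strand, chr2:155381606-155381905. It runs from 250 bases before the start position used for this window to 50 bases after it. In the gene annotation of the same build Trp53inp2 begins earlier, at 155381811, inside the window. The window is therefore not all upstream of the annotated gene, and the stretch in capitals lies just past its annotated beginning.

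Trp53inp2: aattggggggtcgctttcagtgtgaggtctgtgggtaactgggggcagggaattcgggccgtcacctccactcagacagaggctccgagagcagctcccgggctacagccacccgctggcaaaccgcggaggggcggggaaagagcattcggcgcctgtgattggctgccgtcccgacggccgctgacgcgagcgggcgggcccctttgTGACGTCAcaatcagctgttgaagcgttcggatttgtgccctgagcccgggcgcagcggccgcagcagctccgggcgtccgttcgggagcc

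The capitals mark TGACGTCA, the full palindromic form of the cAMP response element, which begins at base 210 of the window and reads the same on both strands. It occurs in 588 of 32851 promoters of this length, or 1.79%. On both strands the window also holds 2 matches to CCAAT (a motif present in 37.4% of promoters) and 2 to GGGCGG (35.7%), and none to CACGTG (7.15%); the matches do not overlap each other. These matches describe the letters of the window alone, since no binding was measured here. A promoter of Trp53inp1 was not analysed here.

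Trp53inp2 was lower in the SKM-KO arrays than in any other array. Its log2 signals were 11.06, 11.19 and 11.15 in C and 8.58, 8.79 and 8.99 in SKM-KO. In Wt they were 11.20, 11.46 and 11.00, and in the arrays labelled SKM-Tg 11.11, 11.03, 11.28 and 11.24. The 10 arrays of the other 3 groups lay between 11.00 and 11.46 and their groups overlapped, while every SKM-KO array lay more than 2 log2 units below all of them.

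**Figure D1:**
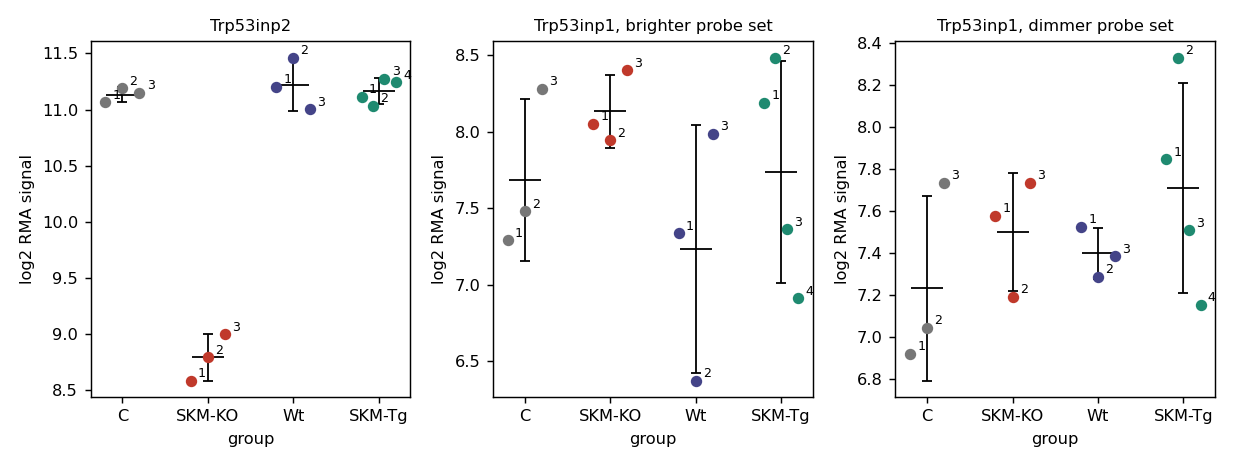
Log2 signal (vertical axis) of Trp53inp2 and of the brighter and dimmer probe sets of Trp53inp1 in each of the 13 arrays, by group on the horizontal axis and numbered within it, with a line at each group mean and bars of 1 SD to either side; the vertical axes do not start at 0 and differ between panels. The 3 SKM-KO arrays lie at 8.58 to 8.99 for Trp53inp2, below all 10 others at 11.00 to 11.46, whereas the groups overlap for both probe sets of Trp53inp1.

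Expressed on the linear scale, the 3 SKM-KO arrays held 17.0%, 19.7% and 22.7% of the geometric mean signal of C, with a group mean of 19.7%. In limma, the fitted model that moderates the spread of each probe set across the array, the change of Trp53inp2 between C and SKM-KO was -2.35 log2 units (95% interval -2.64 to -2.05, SE 0.14, Benjamini-Hochberg adjusted p = 1.07e-05). It was the 1 probe set that fell past the threshold of 0.05 in this comparison (0.00444% of those tested), beside 2 that rose (0.00888%). Across all tested probe sets, 2.75% had every SKM-KO array below every C array. An exact two-sided permutation test of the 3 against 3 arrays gave p = 0.1, the smallest that 20 splits allow.

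The spread of Trp53inp2 within SKM-KO (SD 0.21) was wider than within C (SD 0.06), and similar to that within Wt (SD 0.23); these spreads rest on 3 arrays each and were not tested against each other. In bulk muscle RNA, fewer cells of a type and less RNA per cell cannot be told apart. Where this probe set lies with respect to the deleted exons or the transgene is not given in the sources used here, so the signal that remained in SKM-KO was not assigned to a transcript. Markers of muscle fibres, 13 of 13 measured with contractile and metabolic genes such as Ckm and Ttn, had a mean log2 signal of 12.18 to 12.23 in C and 12.19 to 12.24 in SKM-KO. Markers of macrophages (8 of 9 measured) spanned 6.09 to 6.53 in C and 6.46 to 6.69 in SKM-KO, those of endothelium (6 of 6) 8.37 to 8.50 and 8.27 to 8.42, and those of fat cells (3 of 7) 7.60 to 7.95 and 7.51 to 9.21. The groups did not overlap for the mean of 5 of 5 plasma protein genes typical of liver, at 5.33 to 6.98 in C and 4.89 to 5.23 in SKM-KO (5 of 5 lower, median -0.80). Nor did they for 4 of 6 Schwann cell markers, at 6.79 to 6.89 and 6.92 to 7.46 (4 of 4 higher, median 0.33). Of these genes 0 passed the limma threshold, and their part in the fall of Trp53inp2 was not tested. The liver mean was 6.06, 6.98 and 5.33 in the 3 C arrays. Over all 10411 genes, 4789 had a negative and 5622 a positive difference. Among single tested probe sets, 2.75% had every SKM-KO array below every C array. The share above every C array, and shares for means of lists, are not given here. The fat cell markers were highest in SKM-KO 2 at 9.21, whose Trp53inp2 signal of 8.79 was the middle one of its group.

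In the arrays labelled SKM-Tg, Trp53inp2 did not pass the test. The difference from Wt was -0.06 (SE 0.13, 95% interval -0.33 to 0.22, limma adjusted p = 0.898), and the 4 arrays held 96.1% of the geometric mean of Wt. The exact two-sided permutation test gave p = 0.686, where 35 splits allow a smallest p of 0.0286. No probe set was called in this comparison (0%), although 1447 of 22519 (6.43%) had an unadjusted limma p under 0.05. A probe set outside the transcript made by a transgene would not register it, so this value checks neither the label nor the transgene.

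The sign of that small difference rested on the array Wt 2, which had the highest Trp53inp2 signal of all 13 at 11.46; without Wt 2 it was 0.064. Wt 2 also stood apart over all probe sets, with a mean correlation of 0.968 to the other arrays against 0.986 to 0.991 for the rest. Wt and C, both control groups, differed by 0.09 in Trp53inp2 (limma adjusted p = 0.675), and by -0.032 without Wt 2. By contrast, 5814 probe sets (25.8%) had an unadjusted p under 0.05 between these control groups and 4 (0.0178%) passed after Benjamini-Hochberg adjustment.

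The effect on Trp53inp2 differed between the SKM-KO and SKM-Tg comparisons. The difference of effects was 2.29 (SE 0.19, limma adjusted p = 5.87e-04), the 1 probe set called among those tested (0.00444%). Group means ran from 11.22 in Wt through 11.16 in SKM-Tg and 11.13 in C to 8.79 in SKM-KO. The first 3 neighbours in this order did not differ beyond their spread.

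Trp53inp1 passed in no comparison between groups. Its brighter probe set had SDs within groups of 0.24 to 0.81, where Trp53inp2 had 0.06 to 0.23. The log2 signals of the brighter probe set were 7.29, 7.48 and 8.28 in C and 8.05, 7.94 and 8.40 in SKM-KO. They were 7.33, 6.37 and 7.98 in Wt and 8.19, 8.48, 7.36 and 6.91 in SKM-Tg. SKM-Tg 2 was the highest array and Wt 2 the lowest, and each pair of groups overlapped.

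The dimmer probe set gave 6.92, 7.04 and 7.74 in C and 7.58, 7.19 and 7.73 in SKM-KO. It gave 7.53, 7.29 and 7.39 in Wt and 7.85, 8.33, 7.51 and 7.16 in SKM-Tg. Here too SKM-Tg 2 was the highest, but the lowest was C 1, and the Wt arrays lay close together. The SD of Wt was 0.12 by this probe set and 0.81 by the brighter one.

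Group means of the brighter probe set ran from 8.13 in SKM-KO through 7.74 in SKM-Tg and 7.68 in C to 7.23 in Wt. Those of the dimmer one ran from 7.71 in SKM-Tg through 7.50 in SKM-KO and 7.40 in Wt to 7.23 in C. All neighbours in either order overlapped, and the order was not the same for the pair of probe sets.

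SKM-KO minus C was 0.45 (SE 0.44) by the brighter probe set and 0.27 (SE 0.28) by the dimmer one. SKM-Tg minus Wt was 0.51 (SE 0.41) and 0.31 (SE 0.26). These comparisons use separate arrays, and all 4 values are positive. Taken as 1 contrast, the mean of both effects was 0.48 for the brighter probe set (95% interval -0.18 to 1.14, unadjusted p = 0.141, limma adjusted p = 0.996), a contrast chosen with the signs known. In that contrast 1 probe set, that of Trp53inp2, was called (0.00444%). The interval of Trp53inp1 includes both 0 and a rise of 1.14 log2 units.

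The effects of the SKM-KO and SKM-Tg comparisons on Trp53inp1 differed by 0.06 by the brighter probe set and by 0.04 by the dimmer one, neither past the limma threshold. Wt minus C was -0.45 by the brighter and 0.17 by the dimmer, with opposite signs. Leaving out single arrays moved the mean of both effects for the brighter probe set between 0.26 and 0.67, always positive and never past the threshold after adjustment.

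**Figure D2:**
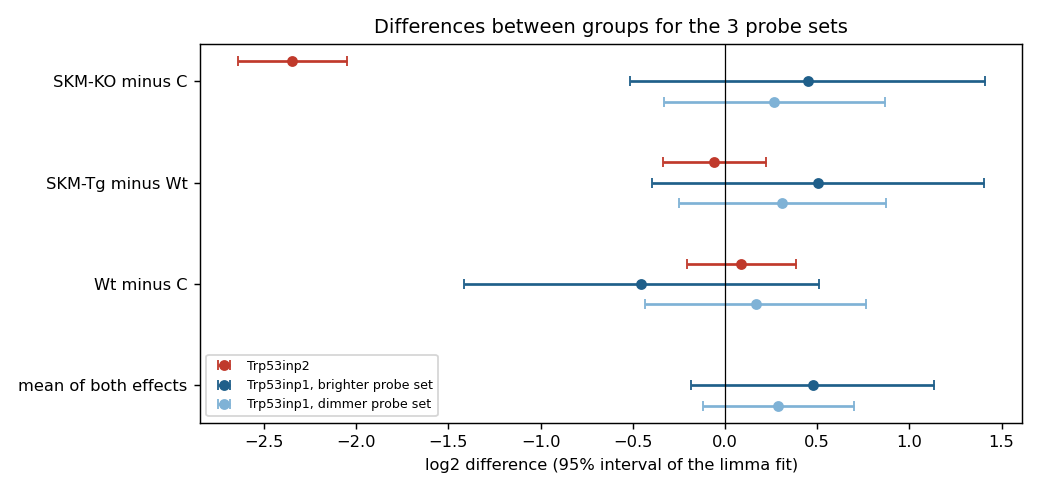
Differences in log2 signal (horizontal axis) with 95% limma intervals for Trp53inp2 and for the brighter and dimmer probe sets of Trp53inp1, for SKM-KO against C, SKM-Tg against Wt and Wt against C on the vertical axis, and for Trp53inp1 alone the mean of both effects. SKM-KO minus C for Trp53inp2, at -2.35, lies apart from 0, and every other interval shown spans 0.

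The pair of Trp53inp1 probe sets moved together across arrays. To compare patterns without the differences between groups, each value was taken as its deviation from its group mean. Over 13 arrays the deviations of the brighter and dimmer probe sets correlated with Pearson's r = 0.80 (exact permutation within groups, p = 0.00154, adjusted over the 3 pairs 0.00463) and Spearman's rho = 0.78 (exact p = 0.00174, adjusted 0.00521). Without Wt 3 and SKM-Tg 2, the arrays farthest from the median, r was 0.90. The gap between them was less even: the brighter exceeded the dimmer by 0.37 to 0.75 in the 6 arrays of C and SKM-KO, whereas the gap ran from -0.92 in Wt 2 to 0.60 in Wt 3 in the other 7.

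Trp53inp2 and Trp53inp1 showed no such relation that held across the arrays. Their deviations correlated with r = -0.55 for the brighter probe set (exact permutation p = 0.0930, adjusted 0.139; rho = -0.57, exact p = 0.0966, adjusted 0.145) and r = -0.23 for the dimmer one (exact p = 0.371, adjusted 0.371; rho = -0.20, exact p = 0.499, adjusted 0.499). Without Wt 2 and Wt 3 the first value was -0.24, and without the SKM-KO arrays it was -0.79, so it depended on both sets of arrays. It was 0.39 over the 6 arrays of C and SKM-KO and -0.93 over the 7 of Wt and SKM-Tg, so its sign differed between the lines. Neither of these values was tested.

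**Figure D3:**
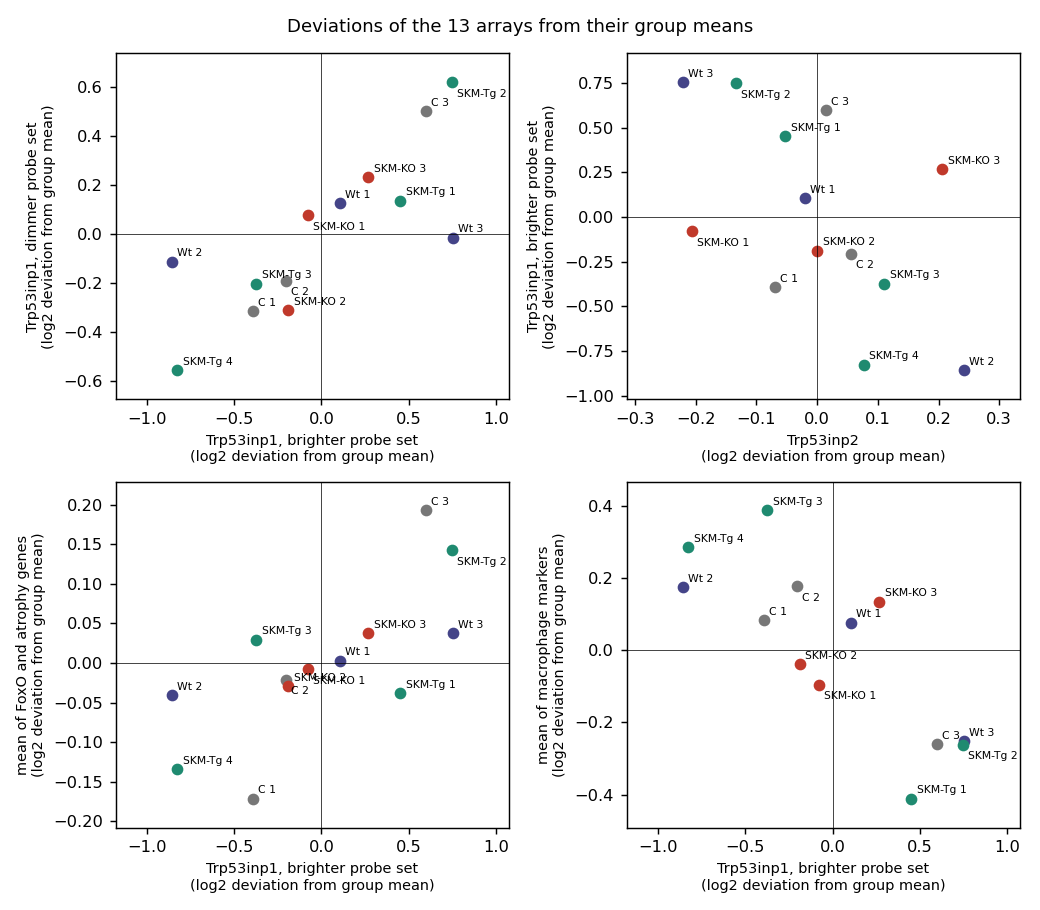
Deviations from the group means (both axes, log2) in 13 arrays, coloured by group and named, for the dimmer against the brighter probe set of Trp53inp1 (r = 0.80), the brighter one against Trp53inp2 (r = -0.55, and -0.24 without Wt 2 and Wt 3, which lie at opposite ends), and the means of the FoxO and atrophy list (r = 0.72) and of the macrophage markers (r = -0.80) against the brighter probe set.

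Wt 2 and Wt 3 carried much of the variation within groups over all tested probe sets, 26.4% and 22.7% of its total. They held 24.4% and 20.3% of that of Trp53inp2, 20.6% and 15.9% of that of the brighter Trp53inp1 probe set, and 0.956% and 0.0159% of that of the dimmer one. For Trp53inp2, SKM-KO 1 and SKM-KO 3 held a further 17.8% and 17.7%, against 3.65% and 2.70% over all tested probe sets. Each r with Trp53inp2 thus also leans on the signal that remained in SKM-KO. A single pattern with Wt 2 and Wt 3 at its ends made up 58.9% of the variation of all probe sets within groups. Trp53inp2 correlated with it at r = 0.73 and the brighter probe set of Trp53inp1 at -0.76, against -0.26 for the dimmer one. All likenesses that follow share these 13 arrays and this pattern. The r of single genes is given as a description without a p, and p-values are given for the means of gene lists. Genes picked by their r over all 13 arrays were also picked on any part of these arrays. Their r without Wt 2 or in C and SKM-KO alone is therefore no separate check.

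Genes whose deviations were most like those of Trp53inp2 were sought among 10410 other genes, each by its brightest probe set. The 10 highest values of r ran from 0.93 to 0.94. They belonged to Dab2ip, a Ras GTPase-activating scaffold (0.94), the transcription factor Sim2 (0.94), the membrane protein paralemmin Palm (0.94), the collagen lysyl hydroxylase Plod1 (0.94), the collagen receptor kinase Ddr2 (0.93), the microfibril protein Mfap4 (0.93), the endosomal Rab effector Rbsn (0.93), the secreted protein Srpx2 (0.93), the zinc finger gene Zfp775 (0.93) and elastin, Eln (0.93). Without Wt 2 these values were 0.89 to 0.93, and in the 6 arrays of C and SKM-KO alone 0.853 to 0.997. As a measure of how common such values are, 5.81% of all genes had an absolute r over 0.8 with Trp53inp2, and the median r was 0.21. In the 6 arrays of C and SKM-KO alone, 19.9% of all genes had an absolute r over 0.8.

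Dab2ip shows what this likeness consists of. Its log2 signals were 9.46, 9.64 and 9.69 in C, 9.36, 9.63 and 9.70 in SKM-KO, 9.84, 10.18 and 9.66 in Wt, and 9.70, 9.68, 9.96 and 9.82 in SKM-Tg. Within each group the array with the lowest Trp53inp2 had the lowest Dab2ip, with SKM-KO 1 and Wt 3 as examples, while the group means of Dab2ip were 9.60 in C and 9.56 in SKM-KO.

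The opposite end for Trp53inp2 was led by H60b, a ligand of the activating receptor NKG2D, at r = -0.96. Then came the chemokine Ccl25 (-0.92), the cytoplasmic RNA sensor Ifih1 (-0.91), the paracaspase Malt1 (-0.90), the NF-Y subunit Nfyb (-0.90), the Hippo pathway scaffold Sav1 (-0.89), Ctla2b (-0.88), the small GTPase Rab2a (-0.88), the NKG2D ligand Ulbp1 (-0.88) and Thoc2l (-0.87). H60b had signals of 6.79, 6.48 and 6.49 in C, 6.86, 6.48 and 5.96 in SKM-KO, 5.86, 5.29 and 6.58 in Wt, and 6.82, 6.64, 6.12 and 6.32 in SKM-Tg. Its lowest array was Wt 2, the highest for Trp53inp2. Without Wt 2, r stood at -0.94 for H60b, and the absolute values over the 10 genes ran from 0.80 to 0.94.

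For the brighter probe set of Trp53inp1 the 10 highest values of r ran from 0.92 to 0.96. The genes were the J-domain protein Dnajc1 (0.96), the nutrient-sensing GATOR2 subunit Mios (0.95), Crebrf, a regulator of CREB3 (0.95), the calcium pump inhibitor phospholamban Pln (0.94), the corepressor Irf2bp2 (0.94), the transcription factors Zbtb20 (0.94) and Foxo3 (0.93), Api5, an inhibitor of apoptosis (0.93), the golgin Gcc2 (0.92) and the anaphase-promoting complex subunit Anapc16 (0.92). Without Wt 2 they ran from 0.88 to 0.94. With the dimmer probe set of Trp53inp1 the same genes gave 0.58 to 0.77. Over all genes, 5.55% had an absolute r over 0.8 with the brighter probe set and 0.365% with the dimmer one.

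Foxo3, which encodes a transcription factor that drives atrophy and autophagy genes in muscle, had log2 signals of 8.99, 9.20 and 9.41 in C and 9.33, 9.42 and 9.51 in SKM-KO. It had 9.40, 9.20 and 9.60 in Wt and 9.52, 9.70, 9.30 and 9.30 in SKM-Tg. Like Trp53inp1, it was highest in SKM-Tg 2 and, within C, highest in C 3. Its r of 0.93 with the brighter probe set was 0.92 without Wt 2, and 0.77 with the dimmer probe set. Between groups it differed by 0.22 in SKM-KO minus C (SE 0.15) and by 0.05 in SKM-Tg minus Wt (SE 0.14), neither past the limma threshold.

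At the opposite end for Trp53inp1 were the tetraspanin Tspan11 (-0.95), the actin-severing protein cofilin, Cfl1 (-0.92), the TNF family ligand Eda (-0.92), the Toll-like receptor chaperone Unc93b1 (-0.92), the stromal membrane protein Cd248 (-0.91), the chromatin remodeller Chd1l (-0.91), the growth factor Fgf18 (-0.90), the ephrin receptor Ephb3 (-0.90), the ubiquitin ligase malin, Nhlrc1 (-0.90), and the mitochondrial calcium-binding protein Efhd1 (-0.90). Without Wt 2 their absolute values ran from 0.87 to 0.94, and with the dimmer probe set they were -0.81 to -0.59. Of these 10 genes, all kept a negative r in the 6 arrays of C and SKM-KO alone.

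Lists of genes around the known roles of both proteins were then read against the members. Of the genes on these 17 lists, 0 passed the limma threshold in SKM-KO minus C and 0 in SKM-Tg minus Wt, where 3 (0.0133%) and 0 (0%) of all probe sets did. The levels of the lists therefore give no call, and the account is of how their genes followed the members from array to array.

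**Figure D4:**
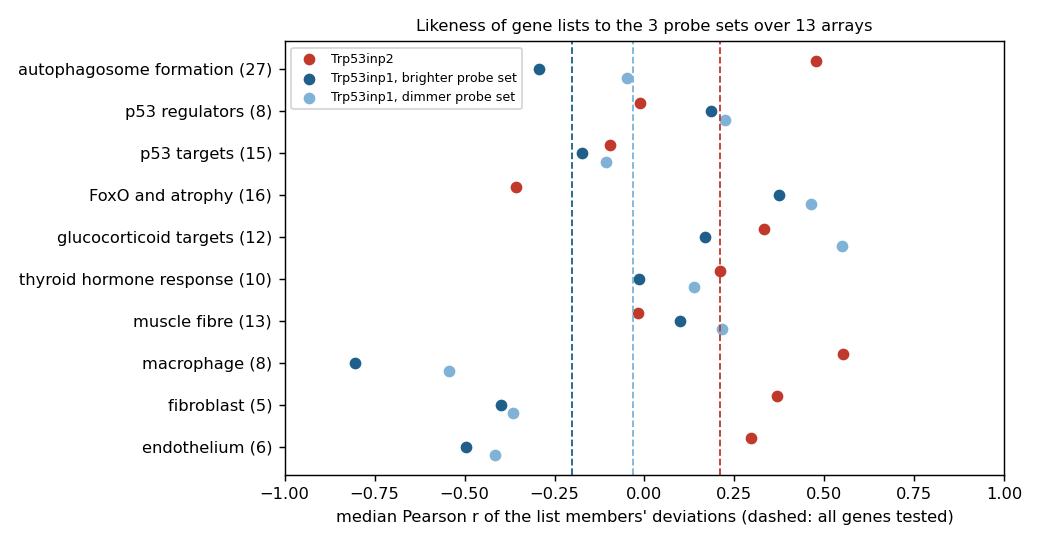
Median Pearson r (horizontal axis) between the deviations of the genes of each list (vertical axis, number of genes measured in brackets) and those of the 3 probe sets over 13 arrays; dashed lines mark the median over all genes tested. Macrophage markers lie at -0.80 and genes of the FoxO and atrophy list at 0.37 for the brighter probe set of Trp53inp1, against -0.20 for all genes.

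Genes of autophagosome formation, the step in which the Trp53inp2 protein acts, had a median r of 0.48 with Trp53inp2 (19 of 27 positive), against 0.21 over all genes. Without Wt 2 the median was 0.19, against 0.12. The highest were the LC3 family member Gabarap (0.78; 0.73 without Wt 2), the ULK complex subunit Atg13 (0.77; 0.64), the lipid transfer protein Atg2a (0.76; 0.58) and the Beclin partner Uvrag (0.74; 0.77). The mean of the list ran from 8.19 to 8.28 in C, 8.25 to 8.33 in SKM-KO, 8.30 to 8.37 in Wt and 8.18 to 8.39 in SKM-Tg. Its correlation with Trp53inp2 was r = 0.57 (exact permutation p = 0.0226, adjusted over 51 relations of lists and probe sets 0.168; rho = 0.74, exact p = 0.0108, adjusted 0.153), and 0.58 without Wt 2 and Wt 3.

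In SKM-KO minus C, 20 of these 27 genes had a positive difference with a median of 0.07, and in SKM-Tg minus Wt 9 of 27 with a median of -0.10; over all genes the medians were 0.0077 and -0.05. The smallest p-values were those of the lipid kinase cofactor Becn1 (0.10 in SKM-KO minus C and 0.26 in SKM-Tg minus Wt), Atg13 (0.13 and -0.37), Atg5 (0.11 and -0.23) and the membrane protein Atg9a (0.10 and -0.35). None passed the test.

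Among regulators of p53, with the brighter probe set of Trp53inp1, the p53 inhibitor Mdm4 and the DNA damage kinase Atm had r = 0.80 each and the ubiquitin ligase Mdm2 0.68, whereas the p53 relative Trp73 had -0.79; 4 of 8 genes were positive. With the dimmer probe set these genes had values nearer 0, of 0.31, 0.35, 0.14 and -0.38. Hipk2, E2f1 and Prkcd, also on this list, had 0.44, -0.19 and -0.07 with the brighter probe set. The mean of the regulators correlated with the brighter probe set at r = 0.81 (exact permutation p = 0.0241, adjusted over the 51 relations 0.168; rho = 0.87, exact p = 0.0106, adjusted 0.153). It was 0.75 without Wt 3 and SKM-Tg 2 and 0.71 without Wt 2, and with the dimmer probe set 0.36 (exact p = 0.196, adjusted 0.385; rho = 0.52, exact p = 0.0976, adjusted 0.284). The median r of the regulators with the brighter probe set was 0.19, and 0.44 without Wt 2. Their mean leans on genes with a wide spread, such as Mdm4 (SE 0.42 in SKM-KO minus C) and Atm (0.28), against 0.10 for E2f1. Target genes of p53 had a median r of -0.17 with the brighter and -0.11 with the dimmer probe set, close to the -0.20 and -0.03 of all genes, although Trp53inp1 is a p53 target itself. Among them Sesn1, a stress-induced regulator of mTORC1 signalling, had 0.77 and 0.73, Tigar, a fructose bisphosphatase, -0.60 and -0.81, and the zinc finger gene Zmat3 -0.49 (-0.27 without Wt 2) and -0.17. Zmat3 followed Trp53inp2, with r = 0.85 and 0.78 without Wt 2.

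FoxO factors and atrophy genes had a positive median r with both probe sets of Trp53inp1. It was 0.37 with the brighter (13 of 16 positive) and 0.46 with the dimmer one (11 of 16), against -0.20 and -0.03 over all genes. Without Wt 2 it was 0.57 and 0.52. Beside Foxo3, the cathepsin Ctsl had r = 0.91 and 0.65, the mitophagy receptor Bnip3 0.80 and 0.45, and the sestrin Sesn3 0.75 and 0.37 with the brighter and dimmer probe sets. Trim63, a muscle ubiquitin ligase, is also on this list; Trp53inp1 itself is not.

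The mean of the list was 9.19, 9.34 and 9.55 in C and 9.47, 9.45 and 9.51 in SKM-KO. It was 9.45, 9.41 and 9.48 in Wt and 9.48, 9.66, 9.55 and 9.38 in SKM-Tg. It correlated with the brighter probe set at r = 0.72 (exact permutation p = 0.00829, adjusted 0.141; rho = 0.78, exact p = 0.0185, adjusted 0.153) and with the dimmer at r = 0.85 (exact p = 0.00714, adjusted 0.141; rho = 0.73, exact p = 0.0295, adjusted 0.167). Without the 2 arrays farthest from the median, r was 0.67 and 0.76. Over the arrays of C and SKM-KO alone r was 0.94 and 0.89, and over those of Wt and SKM-Tg 0.71 and 0.84. None of the 51 relations passed after adjustment, and 10 had an unadjusted p under 0.05.

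Between groups, 14 of the 16 FoxO and atrophy genes had a positive difference in SKM-KO minus C (median 0.11) and 10 in SKM-Tg minus Wt (median 0.05). Over all 10411 genes, 5622 and 3940 did, with medians of 0.0077 and -0.05. Of the 16 genes on the list, 0 passed the threshold in each comparison. The smallest p-values belonged to Foxo4 (-0.01 and 0.37), the growth arrest gene Gadd45a (-0.21 and 0.50), Trim63 (0.21 and -0.03) and Foxo3.

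Glucocorticoid targets had a median r of 0.17 with the brighter and 0.55 with the dimmer probe set of Trp53inp1 (8 and 11 of 12 positive). Without Wt 2 these medians were 0.52 and 0.65, with 11 of 12 positive for each, and the r of the list's mean with the brighter probe set went from 0.14 to 0.72. The transcription factors Klf9 and Zbtb16 stood at 0.84 and 0.78 with the brighter probe set, the co-chaperone Fkbp5 at 0.47 (0.79 without Wt 2) and 0.73 with the brighter and dimmer ones, and the phosphatase Dusp1 at -0.61 and -0.75. In SKM-KO minus C, 12 of 12 had a difference above 0 (median 0.09), as did 5622 of all 10411 genes, and in SKM-Tg minus Wt 6 of 12 did (median -0.02; 3940 of all genes). Past the limma threshold were 0 in each. Genes of the thyroid hormone response, in which Trp53inp2 is known as a coactivator, had a median r of 0.21 with Trp53inp2, as all genes had, and 0.08 without Wt 2, against 0.12. The receptor gene Thra had 0.59 (0.26 without Wt 2), Thrsp, a lipogenic response gene, 0.64 (0.52), and the glucose transporter Slc2a4 0.48 (0.026).

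Markers of other cell types were read against the members as well. Of 8 macrophage markers, 7 had a negative r with the brighter probe set of Trp53inp1 (median -0.80; -0.78 without Wt 2) and 7 with the dimmer one (median -0.54). Over all genes, 40.5% were positive with the brighter probe set (median -0.20) and 46.7% with the dimmer one (median -0.03). The complement gene C1qa had -0.89, the growth factor receptor Csf1r -0.85, the lysosomal protein Cd68 -0.82 and the complement gene C1qb -0.82, and Cd163 was the exception at 0.31 (-0.14 without Wt 2). The mean of these markers correlated with the brighter probe set at r = -0.80 (exact permutation p = 0.0305, adjusted 0.173; rho = -0.80, exact p = 0.0189, adjusted 0.153), and at -0.72 without Wt 3 and SKM-Tg 2.

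Across groups the macrophage mean spanned 6.09 to 6.53 in C, 6.46 to 6.69 in SKM-KO, 6.20 to 6.63 in Wt and 5.85 to 6.64 in SKM-Tg. It was lowest in SKM-Tg 1 at 5.85, SKM-Tg 2 at 6.00, C 3 at 6.09 and Wt 3 at 6.20, and in C, Wt and SKM-Tg these were the arrays with the highest signals of the brighter Trp53inp1 probe set in their groups. In SKM-KO the array highest for that probe set, SKM-KO 3, was also the highest for the macrophage mean, at 6.69. Its defining genes were measured above the filter in 8 of 9 cases, and their part in the spread of Trp53inp1 was not tested.

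With Trp53inp2, 4 of 5 fibroblast markers (median 0.37) and 5 of 6 endothelial ones (median 0.30) had a positive r, and 7 of 8 macrophage markers (median 0.55). Over all genes 59.6% were positive, with a median of 0.21, and 0.12 without Wt 2. Without Wt 2 the medians of the 3 lists were 0.26, 0.60 with 6 of 6 positive, and 0.59. The collagen gene Col1a1 reached r = 0.91 (0.88 without Wt 2), Col3a1 0.63, the endothelial von Willebrand factor gene Vwf 0.87 (0.78) and the cadherin Cdh5 0.72 (0.62). With the brighter probe set of Trp53inp1 these genes stood at -0.71, -0.87, -0.63 (-0.41 without Wt 2) and -0.73. Kdr, Tek and Emcn, also endothelial markers, had 0.07, 0.04 and -0.06 with Trp53inp2 (0.25, 0.61 and 0.21 without Wt 2), and Pecam1 had 0.52. With the brighter Trp53inp1 probe set Kdr, Tek, Emcn and Pecam1 had -0.57, 0.02, -0.17 and -0.42 (-0.85, -0.45, -0.47 and -0.44 without Wt 2). The other fibroblast markers Dcn, Lum and Dpt did not follow Col1a1 closely, with 0.37, 0.04 and -0.26 for Trp53inp2. For the brighter Trp53inp1 probe set they had -0.34, -0.40 and 0.44. The endothelial mean correlated with Trp53inp2 at r = 0.53 (exact permutation p = 0.00714, adjusted 0.141; rho = 0.71, exact p = 0.00772, adjusted 0.153), and at 0.68 without Wt 2 and Wt 3. It spanned 8.37 to 8.50 in C, 8.27 to 8.42 in SKM-KO, 8.49 to 8.51 in Wt and 7.99 to 8.52 in SKM-Tg, and its part in the spread of Trp53inp2 was not tested.

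Genes next to the members in the genome were read beside them. Of the 5 annotated genes on each side of Trp53inp2 in the RefSeq table for GRCm38.p6, 3 were tested, 1 (Ggt7) lay below the filter and 6 have no probe set named here. Map1lc3a, which encodes LC3A, one of the proteins that Trp53inp2 binds, is among these neighbours. Its brighter probe set gave 11.85, 11.80 and 11.84 in C, 11.80, 11.78 and 11.76 in SKM-KO, 11.96, 12.12 and 11.82 in Wt, and 11.84, 11.86, 11.96 and 11.74 in SKM-Tg. By this probe set every SKM-KO array lay just below every C array, as in 2.75% of all tested probe sets, at a difference of -0.05, and SKM-Tg minus Wt was -0.12; neither passed the limma threshold. By the other Map1lc3a probe set the groups overlapped, with 9.75, 9.78 and 9.82 in C and 9.72, 9.77 and 9.73 in SKM-KO.

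The dynein light chain gene Dynlrb1, another neighbour, gave 10.22, 10.25 and 10.28 in C and 10.10, 10.14 and 10.16 in SKM-KO, a difference of -0.12 with no overlap (again 2.75% of all tested probe sets), and 0.02 in SKM-Tg minus Wt. Pigu, a subunit of the enzyme that attaches GPI anchors, differed by -0.12 and 0.07. These differences are small beside the -2.35 of Trp53inp2, and none was called. Around Trp53inp1, 2 of 10 neighbours were tested: Ndufaf6, an assembly factor of respiratory complex I (-0.02 and -0.03), and the Integrator subunit Ints8 (0.26 and 0.19). By another tested Ints8 probe set C and SKM-KO overlapped, with 5.03, 4.99 and 5.17 in C and 4.97, 5.17 and 5.13 in SKM-KO. Both probe sets lay near the filter of 4.904. Of the other neighbours, Ccne2, Dpy19l4 and Esrp1 lay below the filter and 5 have no probe set named here.

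**Figure D5:**
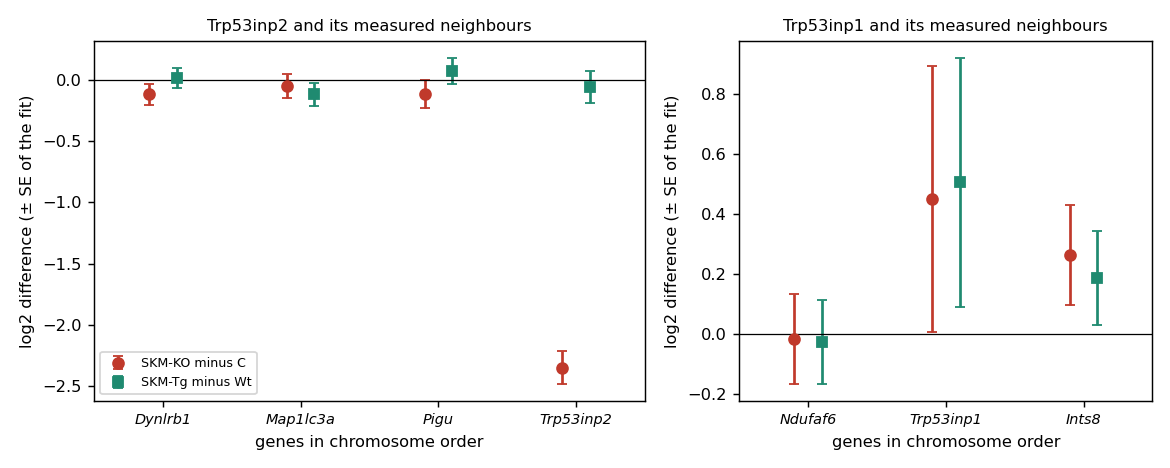
Difference in log2 signal (vertical axis, scaled differently in each panel) with bars of 1 SE of the limma fit to either side, for Trp53inp2, the brighter probe set of Trp53inp1 and their tested neighbours in chromosome order (horizontal axis), for SKM-KO minus C and SKM-Tg minus Wt. Trp53inp2 stands at -2.35 in SKM-KO minus C, and the 3 neighbours of it lie between -0.12 and -0.05.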

How the data were processed

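Quadriceps RNA of 13 mice (25 ng per sample, isothermally amplified and labelled with biotin per the labels' protocols) was read on 1 array each. The deposited values are log2 signals made by the authors with RMA, per the submitters' processing notes; the software version is not given in the sources used here. They ran from 2.14 to 13.21, with array medians of 4.85 to 4.94. Arrays have no read depth; their number limits the precision, and no scan date or batch is given.

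Of 45141 probe sets, 104 controls were set aside. The annotation gave 1 symbol to 28898 of the other 45037, several to 551 and none to 15588. Probe sets with a mean of at least 4.904, the median, were fitted in limma 3.58.1 (R 4.3.3) with 1 mean per group over all arrays (9 residual and 3.49 prior degrees of freedom). Tests were two-sided with Benjamini-Hochberg adjustment over 22519 probe sets; the threshold was 0.05. Correlations used deviations from group means and exact permutation within groups (5184 orders). Genes were represented by their probe set with the highest mean. Both steps were tested on simulated data. The simulated noise was independent between probe sets and arrays, so these tests do not cover the pattern that the real arrays share.

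The members, gene lists and contrasts were chosen with earlier results of these data known. The text names the members, the 10 genes most like and most opposite to each, up to 4 genes per list by r and by p, and 5 neighbours on each side. Of the lists, those for smooth muscle, Schwann cells, red blood cells, lymphocytes, liver and satellite cells serve as markers alone. Their median r with the brighter Trp53inp1 probe set was -0.56, -0.58, -0.63, -0.58, -0.32 and -0.69, and with Trp53inp2 0.43, 0.10, 0.67, 0.44, 0.07 and 0.70, from 3, 4, 2, 1, 5 and 1 genes. For fat cells (3 genes) and fibroblasts (5) these were -0.17 and -0.40, and 0.17 and 0.37. Without Wt 2 the fat cell medians turned to 0.23 and -0.28 and the Schwann cell median with Trp53inp2 to -0.23, and the smooth muscle medians were -0.37 and 0.14. The labels name each mouse singly, so mice are the units of the tests. The limma p sets a difference between groups against the spread between mice, pooled over all groups. The exact permutation p reorders mice.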

Additional observations from a re-analysis of the deposited data

Results flagged for a closer look

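Trp53inp2 differed in its effect between the lines: SKM-Tg minus Wt exceeded SKM-KO minus C by 2.29 on the log2 scale (limma adjusted p = 5.87e-04), with all 3 SKM-KO arrays below all 3 C arrays and overlapping values in SKM-Tg and Wt.

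Among 91 probe sets of named genes examined in the 4 SKM-Tg arrays, 1 had an array far from the other 3. This was Pigu, a neighbour of Trp53inp2, in SKM-Tg 3, where the gap to the nearest other array was 0.913 of the group's range against a critical value of 0.829. Chance alone gives such a gap in about 1 of 20 groups, and 1 among 91 is not above that rate. The Pigu signals were 8.58, 8.57, 8.77 and 8.59. By another tested Pigu probe set they were 7.37, 7.31, 7.65 and 7.58, where SKM-Tg 4 lay near SKM-Tg 3.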

How the results depend on the processing

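The fall of Trp53inp2 in SKM-KO and the difference of effects stayed past the limma threshold under all 8 and 7 alternatives to normalization, filter, probe sets, moderation, weights and samples, from -2.36 to -2.32 and 2.24 to 2.33, and without each array in turn, from -2.45 to -2.24 and 2.18 to 2.41. Trp53inp2 in SKM-Tg minus Wt ran from -0.17 to 0.064 without single arrays and turned to 0.064 without Wt 2; Wt minus C ran from -0.032 to 0.20 and turned without the same array. Trp53inp1 never passed in SKM-KO minus C (0.25 to 0.75 without single arrays), SKM-Tg minus Wt (0.08 to 0.88) or the mean of both effects (0.26 to 0.67). Its difference of effects ran from -0.37 to 0.43 and turned negative without C 3, SKM-KO 2, Wt 2, SKM-Tg 1 or SKM-Tg 2. With array quality weights, whose estimation did not fully converge, its Wt minus C passed at -0.56 (limma adjusted p = 0.0208; 0.0208 to 0.630 over the alternatives). The correlation of Trp53inp2 with Trp53inp1 had an exact permutation p = 0.0494 at -0.63 with quantile normalization and p = 0.0336 at -0.79 without the SKM-KO arrays; it ran from -0.76, without SKM-KO 3, to -0.32, without Wt 2, leaving out single arrays.

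Counts of called probe sets moved more. With array quality weights they were 5634 in SKM-Tg minus Wt, 1395 for the difference of effects, 14869 in Wt minus C and 504 for the mean of both effects; the cause was not tested. With 1 probe set per gene, so fewer tested, they were 1 in SKM-KO minus C, 2 for the difference of effects and 1 in Wt minus C; the difference of effects also had 2 without a filter, and Wt minus C had 0 when only its groups were fitted. Without single arrays SKM-KO minus C had 1 to 3, SKM-Tg minus Wt 0 to 25, the difference of effects 1 to 2 and Wt minus C 1 to 8384, with both highest counts of SKM-Tg minus Wt and Wt minus C reached without Wt 3. Over the genes most like and most opposite to Trp53inp2 together, the median absolute r was 0.93, and 0.89 without Wt 2. For Trp53inp1 it was 0.92 and 0.90. Leaving out Wt 2 was an alternative chosen after seeing the data, and the genes had been picked with Wt 2 included. No paired analysis was possible because the labels give no replicate numbers that the groups share.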
